A study of Mus musculus with 9 samples.

Results

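The genes of antigen presentation by MHC class I were followed from spermatogonial stem cells (SSC) to the induced pluripotent stem cells (iPSC) made from them. The list held 10 genes, namely B2m, H2-K1, H2-D1, Tap1, Tap2, Tapbp, Psmb8, Psmb9, Nlrc5 and Cd74, and was given by name. For a member with several loci the rule took the one with the highest mean of the 9 libraries and named no strand. The choice was limited to the gene's own strand after the data were seen, which set aside a higher locus for Cd74 and for Tapbp and the locus over B2m. A locus on the gene's own strand was found for 9 of the 10 members, among 10837 genes that could be placed in the deposited expression table. RNA sequencing covered 9 libraries in 3 groups of 3. The SSC group was testis cells of postnatal day 6 mice, enriched with magnetic beads for Gfra1, the surface receptor for GDNF, and used at passage 0. The SSCiPSC group was lines reprogrammed from such cells. The fiPSC group was lines reprogrammed from male fetal fibroblasts. Per the labels both kinds of iPSC line were at passage 10 to 11 and were kept in leukemia inhibitory factor and doxycycline, whereas the study's methods describe later passages and withdrawal of doxycycline. All 3 groups came from animals that carried Gt(ROSA)26Sortm1(rtTA*M2)Jae, a doxycycline-dependent transactivator, together with the cassette Col1a1tm3(tetO-Pou5f1,-Sox2,-Klf4,-Myc)Jae of reprogramming factors under its control, so the controls held the reprogramming transgenes as well. The iPSC lines were clonal and were purified on SSEA1 beads before RNA was taken. The p-values below measure the spread among the 3 libraries of a group. The labels used here number the iPSC libraries and do not say whether they were separate lines. No source states how many animals stood behind each SSC library.

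MHC class I molecules show peptides from a cell's own cytosol to CD8+ T cells and natural killer cells. Proteasomes cut cytosolic proteins, the Tap1 and Tap2 transporter carries the peptides into the endoplasmic reticulum, tapasin (Tapbp) holds an empty heavy chain next to that transporter, and a heavy chain such as H2-K1 or H2-D1 reaches the surface only together with B2m and a peptide. Interferon gamma raises these class I genes through Irf1 and the transactivator Nlrc5, and swaps the catalytic subunits Psmb5 and Psmb6 for Psmb8 and Psmb9. Germ cells and pluripotent cells are known for low class I levels. Cd74, the invariant chain, belongs to class II presentation by macrophages, dendritic cells and B cells, and stands in the list as the class II partner.

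Values were FPKM, fragments per kilobase of transcript per 1000000 mapped fragments, so that levels could be compared between genes per length. The table named 54913 usable loci by interval and carried the strand only through the order of its rows. Depth differed between the groups. From the step size of low values the SSC libraries held an estimated 1.77, 4.62 and 1.38 × 1000000 fragments, and the 6 iPSC libraries 13.3 to 17.6 × 1000000. A member that was low in SSC therefore rested on few fragments. The libraries carried the markers of their labels. Gfra1 was at 37.7, 34.1 and 23.9 FPKM in SSC and at most 0.17 FPKM in an iPSC library, and Nanog, a pluripotency factor, was listed at 0 in the SSC libraries and was at 270 to 483 FPKM in the iPSC libraries. The SSC libraries held transcripts of germ cells and of several somatic testis cells. Dazl, a germ cell RNA-binding protein, was at 194, 263 and 174 FPKM, and Clu, abundant in Sertoli cells, at 713, 645 and 538 FPKM. The summed FPKM of 5 mast cell protease genes was 107, 425 and 1180 in SSC libraries 1, 2 and 3 and at most 0.0806 in any iPSC library. The summed FPKM of 10 macrophage and dendritic cell markers was 67.8, 27.4 and 230 in the SSC libraries and 10.2 to 16.9 in the iPSC libraries. In bulk RNA, fewer cells of a type and less RNA per cell cannot be told apart.

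B2m, the light chain shared by all class I molecules, was the member without a locus. The interval over its gene on chromosome 2 (chr2:122130384-122186183) held 1 minus-strand locus and 6 loci without strand, and B2m lies on the plus strand, so B2m was not analysed here. The minus-strand locus, which the rule without a strand would take for B2m, did not pass (-0.15 and 0.36, limma adjusted p = 0.864 and 0.635). H2-K1 had 1 minus-strand locus (chr17:33977771-34000299), which also spans the class I pseudogene Gm4152. H2-D1 lay in an interval of 211489 bp (chr17:35262739-35474227) that also holds the H2-Q genes, and the highest of its 6 plus-strand loci was taken. The longest protein-coding transcript of H2-D1 was 90.7% identical to that of H2-K1 over the aligned bases, with an unbroken shared run of 91 bases, and 85.8% to 91.3% identical to those of 6 H2-Q genes, with shared runs of 72 to 184 bases. Fragments from these genes can be assigned to each other, so H2-K1 and H2-D1 values are uncertain between class I genes and stand for the class I heavy chains of their intervals.

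The promoters of H2-K1 and H2-D1 are printed because they carry the stretch through which both heavy chain genes are known to respond to NF-kB and interferon. Windows of 300 bases around the transcription start, from RefSeq on GRCm38.p6, were given for 7 of the 10 members. Both strands were searched for 4 motifs. The NF-kB motif GGGNNTTCCC was in 1.75% of all 32851 windows and, among the members, in those of H2-K1 and H2-D1. Each stretch below runs 5′ to 3′ on the gene's own strand, and the capitals mark the NF-kB match. The H2-K1 stretch (chr17:34000429-34000458, minus strand) begins 111 and 125 bases before the RefSeq starts of that gene's 2 windows. The H2-D1 stretch (chr17:35262923-35262952, plus strand) begins 171 bases before its RefSeq start, while GENCODE places the start of H2-D1 further upstream (gene at chr17:35262730-35267499).
H2-K1: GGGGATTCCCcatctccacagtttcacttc
H2-D1: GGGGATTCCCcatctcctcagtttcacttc
The stretches were identical at 29 of 30 bases. Counted from the first base printed, the difference from H2-K1 to H2-D1 was A18T. The interferon-stimulated response element searched as GAAANNGAAA, in 3.44% of all windows, was in that of B2m. An exact pattern can miss variants of an element, so a window without a match may still hold one. The gamma-activated site TTCNNNGAA, in 8.30% of all windows, was in that of Psmb8. The CCAAT box, in 37.4% of all windows, was in those of B2m, H2-K1, H2-D1, Tap1, Tapbp and Psmb9. Tap1 and Psmb9 point away from each other, and their RefSeq starts lay 226 bases apart.

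The class I heavy chains were the most abundant members in SSC together with Tapbp, and both fell in both kinds of iPSC line. H2-K1 was at 42.8, 28.2 and 40.5 FPKM in the SSC libraries, at 14.2, 6.91 and 11.7 FPKM in the SSCiPSC libraries and at 13.9, 15.3 and 10.4 FPKM in the fiPSC libraries. H2-D1 was at 51.6, 34.8 and 79.4 FPKM in SSC, at 12.0, 4.94 and 7.09 FPKM in SSCiPSC and at 10.8, 13.3 and 13.4 FPKM in fiPSC. For each gene the lowest SSC library was above the highest of the 6 iPSC libraries, and the iPSC groups overlapped. H2-K1 fell by 1.71 on the log2(FPKM + 1) scale in SSCiPSC (SE 0.29, n = 3 and 3, limma adjusted p = 0.00345) and by 1.42 in fiPSC (SE 0.22, limma adjusted p = 0.00221). H2-D1 fell by 2.64 in SSCiPSC (SE 0.39, limma adjusted p = 0.00189) and by 1.98 in fiPSC (SE 0.30, limma adjusted p = 0.00207). A log2 difference of FPKM + 1 understates the change of low genes. The sum of all 6 plus-strand loci of the H2-D1 interval, 97, 48.4 and 127 FPKM in SSC against 7.24 to 18.5 FPKM in the iPSC libraries, separated SSC from iPSC in the same way.

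**Figure D1:**
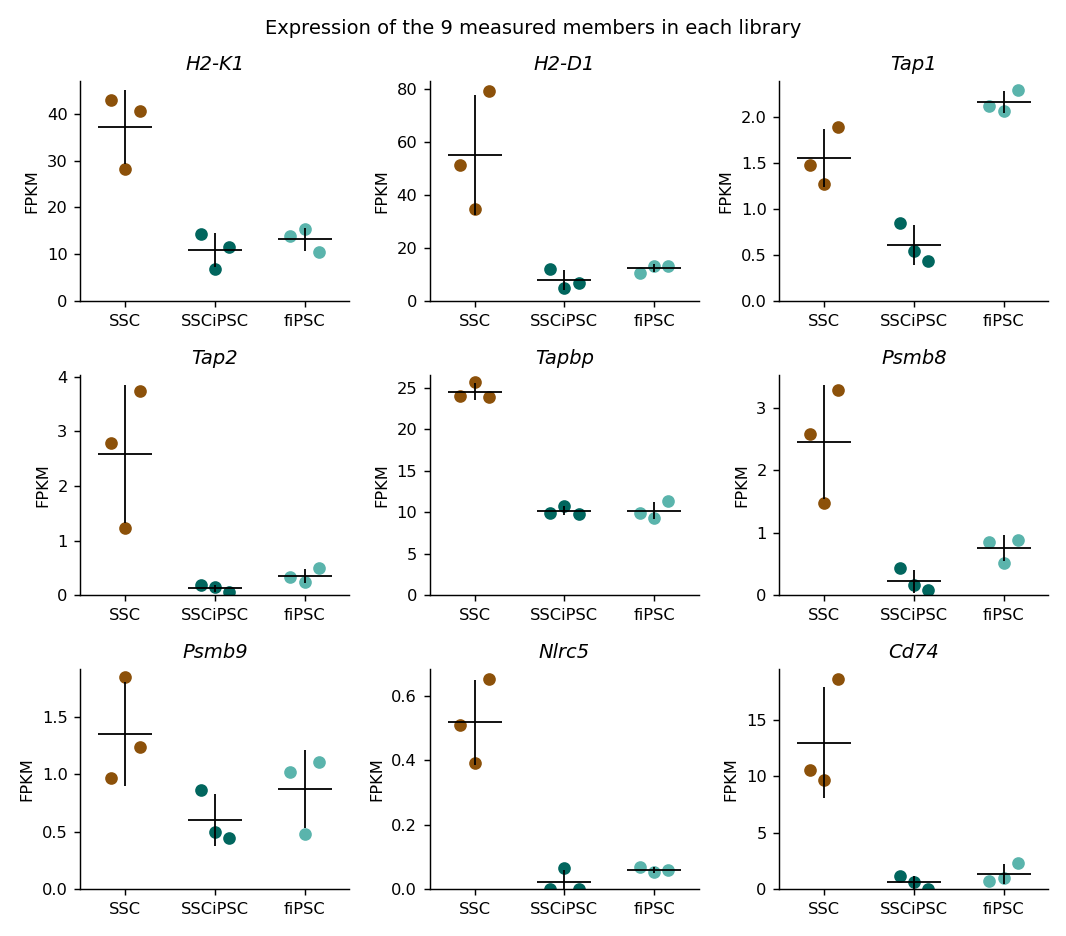
FPKM (y axes, from 0) of the 9 measured members in the 3 SSC, 3 SSCiPSC and 3 fiPSC libraries, with 1 point per library, the group mean as a horizontal line and 1 SD as a vertical line. SSC points lie above all iPSC points for H2-K1, H2-D1, Tap2, Tapbp, Psmb8, Nlrc5 and Cd74, whereas Tap1 is lowest in SSCiPSC and highest in fiPSC and Psmb9 overlaps.

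Across the members that could be tested, the calls in the SSC comparisons ran in 1 direction. Against SSC, 7 members were tested in SSCiPSC and 7 were called lower, where 24.1% of the 36544 loci tested were called lower and 50.3% were called either way at an adjusted p below 0.05. In fiPSC 8 members were tested, 6 were called lower and 2 did not pass, where 23.7% of 38007 loci were called lower and 51.8% either way. All 3 SSCiPSC libraries were below all 3 SSC libraries for 7 of these 7, beside 28.7% of the loci tested. All 3 fiPSC libraries were below SSC for 6 of the 8, beside 28.5%, above SSC for 1 (Tap1), beside 33.1%, and overlapped for 1 (Psmb9). The median log2 difference of the tested members was -1.60 in SSCiPSC and -1.27 in fiPSC, beside 0.11 and 0.17 over all loci tested. A locus was tested where at least 3 libraries of the comparison reached 1 FPKM. Tap1, Tap2 and Psmb8 in SSCiPSC, and Tap2 and Psmb8 in fiPSC, were under 1 FPKM in every iPSC library and entered the test through their SSC values, as did Cd74, which reached 1 FPKM in 1 library of each iPSC group, so these counts are a description. H2-K1, H2-D1 and Tapbp were above 1 FPKM in all 9 libraries. The SSCiPSC and fiPSC comparisons share the same SSC libraries. By the rule without a strand, 8 members were tested in SSCiPSC, with 6 called lower and 1, Cd74, higher, and 9 in fiPSC, with 5 called lower and Cd74 again higher.

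**Figure D2:**
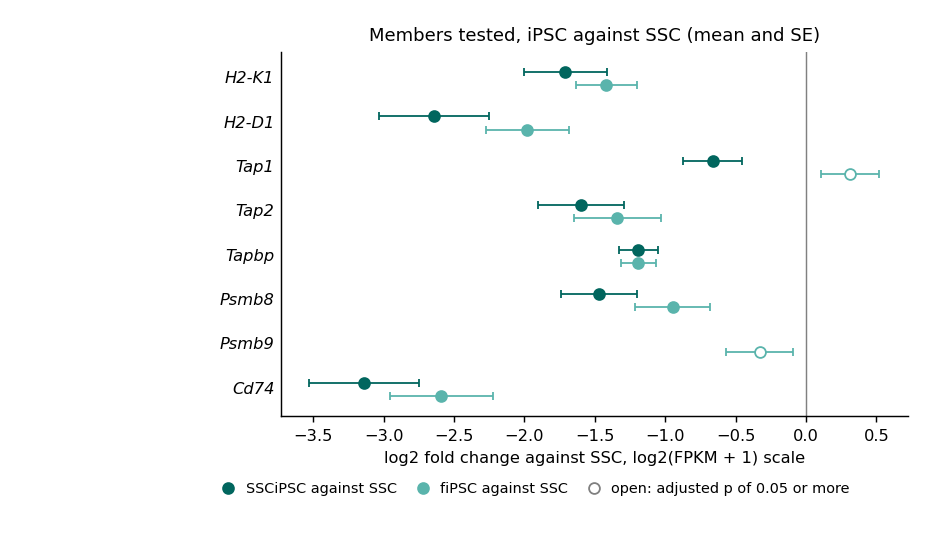
Log2 difference from SSC on the log2(FPKM + 1) scale (x axis) of the members tested, with the standard error of the limma fit, for SSCiPSC (dark) and fiPSC (light). Filled points passed an adjusted p of 0.05, and the open points are Tap1 and Psmb9 in fiPSC.

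The transporter and its partner differed in pattern. Tapbp, the tapasin bridge between transporter and heavy chain, had SSC values that lay close together. It was at 24, 25.7 and 23.8 FPKM in SSC, at 9.92, 10.8 and 9.76 FPKM in SSCiPSC and at 9.87, 9.34 and 11.3 FPKM in fiPSC. No SSC library came near an iPSC library, and the iPSC groups overlapped. Tapbp fell by 1.19 in SSCiPSC (SE 0.14, limma adjusted p = 0.000757) and by 1.19 in fiPSC (SE 0.13, limma adjusted p = 0.00052). Its locus (chr17:33915899-33928170) also covers Zbtb22, a neighboring gene on the same strand. A locus without strand at the end of the gene (chr17:33929007-33929444) had a higher mean and gave -1.79 and -1.82 (limma adjusted p = 0.00209 and 0.000763).

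Tap1, the first chain of the peptide transporter, lay on opposite sides of SSC in the 2 kinds of line. It was at 1.48, 1.28 and 1.90 FPKM in SSC, at 0.85, 0.55 and 0.43 FPKM in SSCiPSC and at 2.12, 2.07 and 2.29 FPKM in fiPSC. All SSCiPSC libraries were below, and all fiPSC libraries above, the 3 SSC libraries. Tap1 fell by 0.66 in SSCiPSC (SE 0.21, limma adjusted p = 0.0369), a call lost in 8 of 14 alternative settings with adjusted p values of 0.0128 to 0.126. In fiPSC the log2 difference from SSC was 0.32 (SE 0.21, limma adjusted p = 0.247). Compared directly, fiPSC exceeded SSCiPSC by 0.98 (SE 0.18), with an unadjusted p of 0.000901 and a limma adjusted p of 0.184. In estimated fragments Tap1 rested on 7.33, 16.5 and 7.33 in the SSC libraries, on 18.3 to 37.5 in SSCiPSC and on 78.8 to 102 in fiPSC. Tap2, the other chain, was at 2.78, 1.23 and 3.74 FPKM in SSC, at 0.18, 0.14 and 0.057 FPKM in SSCiPSC and at 0.32, 0.24 and 0.49 FPKM in fiPSC. The SSC libraries were above all iPSC libraries, and every SSCiPSC library was below every fiPSC library. Tap2 fell by 1.60 in SSCiPSC (SE 0.31, limma adjusted p = 0.00542) and by 1.34 in fiPSC (SE 0.31, limma adjusted p = 0.012). Without fiPSC replicate 2 the fiPSC value was -1.28 with a limma adjusted p of 0.0529. The Tap1 locus (chr17:34187539-34197247) and the Tap2 locus (chr17:34204399-34216231) covered their own gene alone.

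Of the other genes of the peptide loading complex and its quality control, 5 had a locus of their own and were tested in addition to Tap1, Tap2 and Tapbp. Of these 5, at the deposited scaling, Canx, Calr and Uggt1 were called higher in both kinds of iPSC line, Erap1 was called lower and Pdia3 did not pass. Canx, calnexin, which folds new glycoproteins, was at 123, 113 and 136 FPKM in SSC and at 354 to 451 FPKM in the iPSC libraries, and it rose by 1.77 in SSCiPSC (SE 0.13, limma adjusted p = 0.000161) and by 1.55 in fiPSC. Calr, calreticulin, rose by 0.93 in each kind of line (limma adjusted p = 0.00427 and 0.00129). Uggt1, the glycoprotein folding sensor, rose by 0.66 and 0.46. Its fiPSC call was lost with replicate number as a block in the fit (limma adjusted p = 0.0507). Under quantile normalization Canx still rose, by 0.66 and 0.55, whereas Calr turned to -0.37 and -0.31 (limma adjusted p = 0.0576 and 0.0611) and the Uggt1 calls were lost (limma adjusted p = 0.19 and 0.332). Pdia3, the disulfide isomerase of the complex, did not pass at the deposited scaling (limma adjusted p = 0.0669 and 0.223) and depended on it. Pdia3 was called lower under quantile normalization (-0.75 and -0.83, limma adjusted p = 0.00198 and 0.000501) and higher with median-ratio scaling (0.61 and 0.41, limma adjusted p = 0.0238 and 0.035). Erap1, the aminopeptidase that trims peptides to the class I length, was at 22, 24.5 and 21.0 FPKM in SSC and at 1.25 to 3.09 FPKM in the iPSC libraries. Erap1 fell by 3.04 in SSCiPSC (SE 0.28, limma adjusted p = 0.000321) and by 2.82 in fiPSC (SE 0.18, limma adjusted p = 0.000122). With the members included, the list counted 3 genes higher and 4 lower of 8 tested in SSCiPSC, and 3 higher and 3 lower in fiPSC, beside 26.2% higher and 24.1% lower of all loci tested in SSCiPSC and 28.0% and 23.7% in fiPSC.

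The inducible proteasome subunits Psmb8 and Psmb9 were low in every group. Psmb10, listed with them, lay in a locus shared with Ctrl and was not tested. That locus was at 8.66, 12.7 and 6.68 FPKM in SSC and at 11.6 to 16.4 FPKM in the iPSC libraries. Psmb8 was at 2.57, 1.48 and 3.29 FPKM in SSC, at 0.43, 0.16 and 0.075 FPKM in SSCiPSC and at 0.85, 0.51 and 0.88 FPKM in fiPSC. The groups did not overlap, in the order SSC, fiPSC, SSCiPSC. The smallest whole fragment counts that matched the Psmb8 values were 4, 6 and 4 in SSC. They were 6, 2 and 1 in SSCiPSC and 10, 8 and 12 in fiPSC. Such counts are minima, since multiples of them match as well. By the longest transcript, the estimate used for Tap1, Psmb8 rested on 6.68, 10 and 6.68 fragments in SSC. The higher SSC level thus came from few fragments in shallow libraries. Psmb8 fell by 1.47 in SSCiPSC (SE 0.27, limma adjusted p = 0.0046) and by 0.95 in fiPSC (SE 0.27, limma adjusted p = 0.0257). The fiPSC call was lost without SSC replicate 1 (limma adjusted p = 0.0545) and without fiPSC replicate 1, 2 or 3 (limma adjusted p = 0.0727, 0.0976 and 0.0673). Psmb9 was at 0.97, 1.85 and 1.24 FPKM in SSC, at 0.86, 0.49 and 0.45 FPKM in SSCiPSC and at 1.02, 0.48 and 1.11 FPKM in fiPSC, and its SSC and fiPSC values overlapped. In the smallest whole fragments that matched, Psmb9 was at 1, 5 and 1 in SSC. By the longest transcript it was at 2.04, 10.2 and 2.04, so no order of groups can be read from it at this depth. Psmb9 was under the filter in SSCiPSC (without the filter -0.55, limma adjusted p = 0.128), and its log2 difference in fiPSC was -0.33 (SE 0.24, limma adjusted p = 0.29).

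Of the constitutive subunits, Psmb5 rose under each alternative, and Psmb6 and Psmb7 depended on the scaling. Psmb5, the chymotrypsin-like subunit, was at 12.5, 19.1 and 20.5 FPKM in SSC and at 59.0 to 66.1 FPKM in the iPSC libraries. Psmb5 rose by 1.82 in SSCiPSC (SE 0.20, limma adjusted p = 0.000654) and by 1.81 in fiPSC (SE 0.19, limma adjusted p = 0.000552). At the deposited scaling Psmb6 rose by 0.85 and 0.80, and Psmb7 by 0.84 and 0.65, so 3 of 3 constitutive catalytic subunits were called higher in each kind of line, beside 26.2% and 28.0% of all loci tested. Under quantile normalization Psmb6 turned to -0.32 and -0.25 (limma adjusted p = 0.0697 and 0.0623) and Psmb7 to -0.25 and -0.33 (limma adjusted p = 0.139 and 0.0352), while Psmb5 rose by 1.45 and 1.51. Set against its counterpart in the same library, the Psmb8 level was 20.6%, 7.72% and 16.0% of the Psmb5 level in SSC, and 0.127% to 1.43% in the iPSC libraries. The Psmb9 level was 0.595% to 0.867% of the Psmb6 level in SSC and 0.121% to 0.306% in the iPSC libraries. The ranges did not overlap, but for Psmb9 the SSC share rests on few fragments (at least 1, 5 and 1). The FPKM of Psmb9 itself overlapped between SSC and fiPSC. Of the proteasome activators, Psme3 was at 52.3 to 70.6 FPKM in SSC and at 49.3 to 78.4 FPKM in the iPSC libraries, and neither Psme3 nor Psme2 passed the test at the deposited scaling. Under quantile normalization Psme3 was called lower (-0.62 and -0.68, limma adjusted p = 0.0207 and 0.00748).

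**Figure D3:**
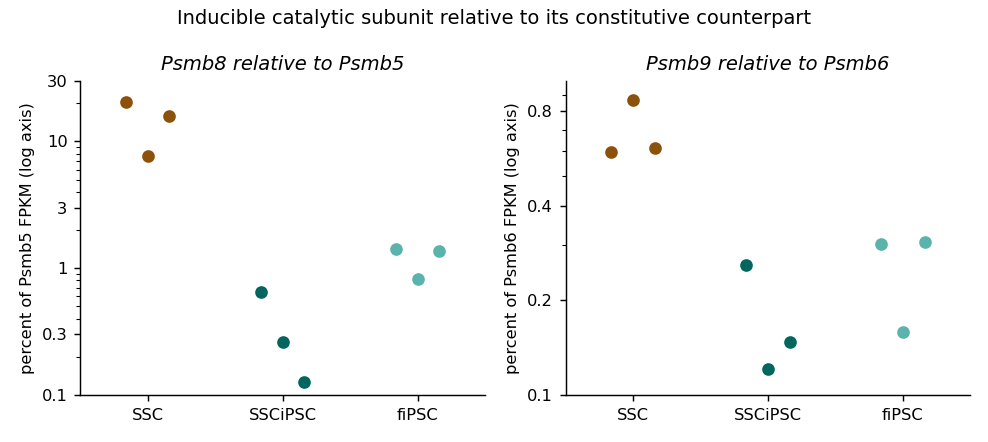
FPKM of Psmb8 as a percent of Psmb5 (left) and of Psmb9 as a percent of Psmb6 (right) in each library, on log axes, with 1 point per library. SSC points, at 7.72% to 20.6% and 0.595% to 0.867%, lie above all iPSC points in both panels. Those of Psmb9 rest on few fragments (at least 1, 5 and 1).

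Nlrc5, the transactivator of class I genes, could be followed only through a fragment of 6.06% of the gene (chr8:94476489-94482121). That locus was at 0.51, 0.39 and 0.65 FPKM in SSC, was listed at 0, 0.065 and 0 FPKM in SSCiPSC, and was at 0.068, 0.051 and 0.058 FPKM in fiPSC. The SSC values were the highest, but the smallest whole fragment counts that matched them were 1, 2 and 1. On the same count the iPSC values came from at most 1 fragment each. The locus was under the filter on low values in every comparison. Without that filter it passed against SSC in SSCiPSC and in fiPSC (limma adjusted p = 0.00646 and 0.00874), on the same few fragments, and no fold is given for Nlrc5.

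Other regulators of the class I promoters had loci of their own, and 12 of 14 in the list were tested. In SSCiPSC 2 were called higher and 5 lower, and in fiPSC also 2 higher and 5 lower. These 7 of 12 calls stand beside 50.3% and 51.8% of all loci called either way, and the calls lower beside 24.1% and 23.7%. The median log2 difference of the list was -0.07 and -0.21. The 5 lower genes were Irf1, Irf2, Irf8, Rela and Nfkb1 in both comparisons, and Irf2 and Irf8 were under 1 FPKM in all iPSC libraries and entered the test through SSC. Rela, the transactivating subunit of NF-kB, fell by 2.03 in SSCiPSC (SE 0.25, limma adjusted p = 0.000882) and by 2.29 in fiPSC (SE 0.14, limma adjusted p = 0.000121), from 42.9 to 54.2 FPKM in SSC. Irf2, an interferon regulatory factor, was at 7.07, 9.25 and 10.9 FPKM in SSC and at 0 to 0.099 FPKM in the iPSC libraries, and fell by 3.29 and 3.23 (limma adjusted p = 0.000207 and 0.000176). Irf1, the interferon-induced factor of class I genes, stayed at 18.0 to 30.6 FPKM in the iPSC libraries against 34.7, 49.8 and 36.4 FPKM in SSC, and fell by 0.83 and 0.63 (limma adjusted p = 0.0312 and 0.0158), calls that were lost in 5 and 3 of 15 alternative settings, with median-ratio scaling in both (limma adjusted p = 0.0985 and 0.109). Nfyb, a subunit of the factor that binds CCAAT boxes, rose by 1.82 and 1.78 (limma adjusted p = 0.000155 and 9.08e-05). Rfx5 and Rfxap, subunits of the RFX complex that binds class I and class II promoters, did not pass in either comparison, and their partner Rfxank did not pass in SSCiPSC (limma adjusted p = 0.195). Rfxank rose by 0.84 in fiPSC (SE 0.26, limma adjusted p = 0.0356), a call that was lost in 6 of 15 alternative settings, among them the removal of any 1 fiPSC library.

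Interferon receptors and their kinases were lower in the iPSC lines. Of 7 genes tested, 6 fell in SSCiPSC and the same 6 fell in fiPSC, namely Ifngr1, Ifngr2, Ifnar1, Ifnar2, Jak1 and Jak2, beside 24.1% and 23.7% of all loci called lower, and the median log2 difference was -1.77 and -2.0. Ifngr2, a chain of the interferon gamma receptor, was at 34.6, 44.2 and 33.9 FPKM in SSC and at 1.76 to 3.57 FPKM in the iPSC libraries. Ifngr2 fell by 3.63 in SSCiPSC (SE 0.21, limma adjusted p = 9.66e-05) and by 3.25 in fiPSC (SE 0.21, limma adjusted p = 0.000122). Jak2, a kinase bound to that receptor, was at 38.1, 33.7 and 34.4 FPKM in SSC and at 2.21 to 3.51 FPKM in the iPSC libraries, and fell by 3.16 and 3.41 (limma adjusted p = 9.3e-05 and 3.75e-05). Jak1, which serves both interferon receptors, fell by 1.77 and 2.0, and Ifnar1, a chain of the type I receptor, by 1.36 and 1.46. Tyk2, the kinase of the type I receptor, did not pass (limma adjusted p = 0.906 and 0.508). Many markers of the germ line and of other testis cells were lower as well. Of 10 germ line markers tested, 7 fell in each comparison, beside the same 24.1% and 23.7% of all loci. Among these 7, 3 had no iPSC library at 1 FPKM, and 2 other markers, Etv5 and Kit, rose. All 6 Sertoli, 3 Leydig and 5 mast cell markers tested fell in both comparisons, as did 7 of 9 peritubular and fibroblast markers. All the mast and Leydig markers were under 1 FPKM in every iPSC library and entered the test through SSC, as did 5 of the 6 Sertoli markers in SSCiPSC and 4 of 6 in fiPSC, so these counts are a description. Of 9 macrophage and dendritic cell markers 6 fell in SSCiPSC and 5 in fiPSC, and all 6 and 3 of the 5 had no iPSC library of the comparison at 1 FPKM. The count in fiPSC dropped to 1, Mrc1, without fiPSC replicate 1 or 2, to 2 without fiPSC replicate 3 and to 3 without SSC replicate 1. Of 7 endothelial markers 3 fell in each comparison, all 3 with no iPSC library at 1 FPKM, and 2, Pecam1 and Egfl7, rose, with the Pecam1 calls lost under quantile normalization (limma adjusted p = 0.194 and 0.157). The summed FPKM of the Sertoli markers was 1020, 1010 and 835 in SSC and 2.96 to 7.74 in the iPSC libraries. The part of germ cells or of other testis cells in the difference of the interferon genes, or of the class I genes above, was not tested.

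**Figure D4:**
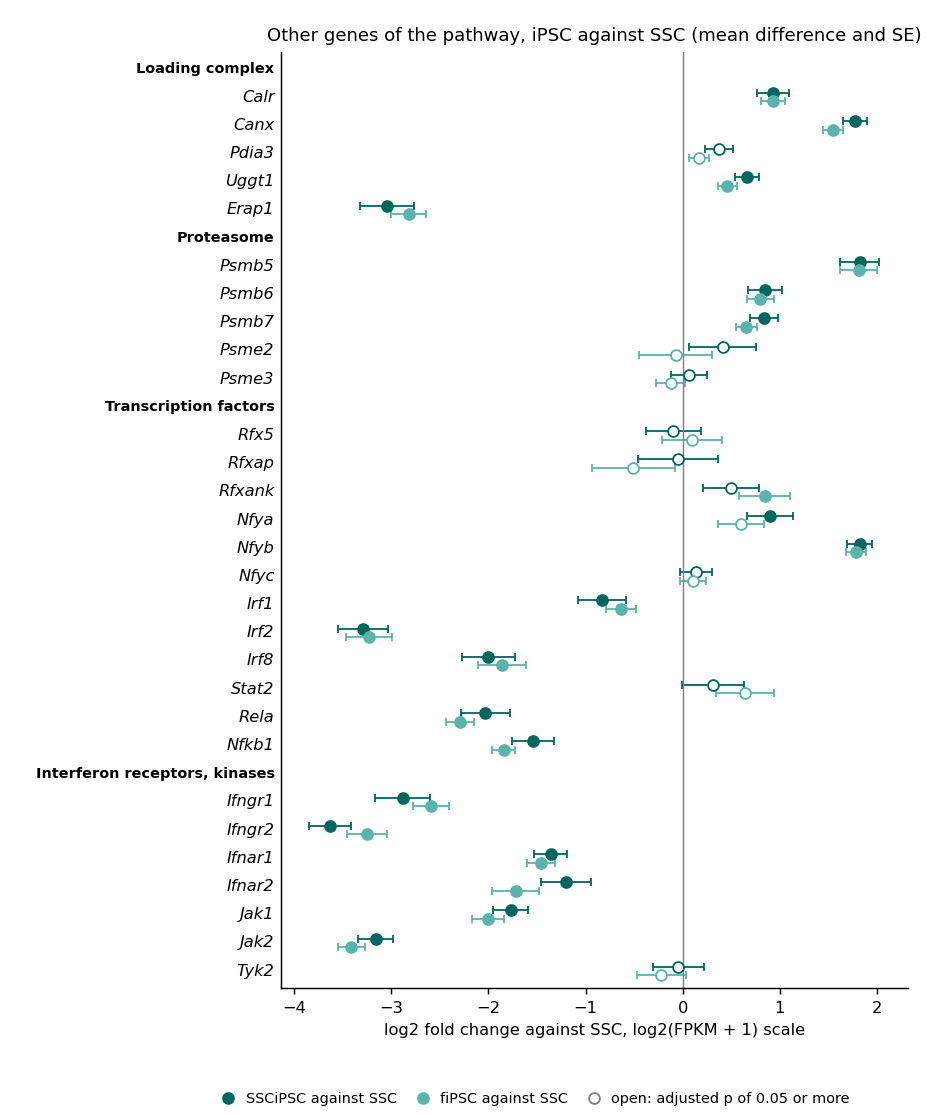
Log2 difference from SSC on the log2(FPKM + 1) scale (x axis), with the standard error of the limma fit, of other genes of the pathway grouped by role, for SSCiPSC (dark) and fiPSC (light), with filled points past an adjusted p of 0.05. The 3 constitutive proteasome subunits, Calr, Canx, Uggt1 and Nfyb lie to the right of 0 at the deposited scaling (Psmb6, Psmb7 and Calr turn under quantile normalization). Erap1, Irf2, Irf8, Rela, Nfkb1, Ifngr1, Ifngr2, Jak1 and Jak2 lie at -1.5 or further left.

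Among the other class I heavy chains, 2 of the 17 genes listed had a locus of their own. H2-M3, a nonclassical heavy chain that presents formylated peptides, was at 1.32, 1.51 and 1.69 FPKM in SSC and at 0.23 to 0.52 FPKM in the iPSC libraries, and fell by 0.88 in SSCiPSC (SE 0.18, limma adjusted p = 0.00745) and by 0.78 in fiPSC (SE 0.15, limma adjusted p = 0.00633). H2-M3 too entered the test through its SSC values. Cd1d1, a lipid-presenting heavy chain, did not pass (limma adjusted p = 0.234 and 0.562). H2-T23 and its neighbors shared 1 interval with 3 minus-strand loci. The highest of these was at 8.38, 7.07 and 9.88 FPKM in SSC and 1.14 to 2.46 FPKM in the iPSC libraries. The locus of H2-M5, shared with H2-M6-ps and 2410137M14Rik, went the other way, at 0, 0.32 and 0 FPKM in SSC and 13.2 to 26.0 FPKM in the iPSC libraries. Shared loci were not tested for the list.

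Cd74, read from its own strand, showed the largest log2 difference among the members. It was at 10.6, 9.70 and 18.6 FPKM in SSC, at 1.15, 0.59 and 0.035 FPKM in SSCiPSC and at 0.68, 0.99 and 2.33 FPKM in fiPSC. Every SSC library was above every iPSC library, and the iPSC groups overlapped. Cd74 fell by 3.14 in SSCiPSC (SE 0.39, limma adjusted p = 0.000926) and by 2.59 in fiPSC (SE 0.37, limma adjusted p = 0.00171). In estimated fragments Cd74 rested on 23.4, 56.1 and 32.3 in SSC and on 0.67 to 45.0 in the iPSC libraries. Its plus-strand locus (chr18:60803904-60815331) shares its interval with a minus-strand locus that was higher in iPSC, at 4.39 to 11.4 FPKM against 1.59, 2.91 and 1.97 FPKM in SSC. The minus-strand locus had the higher mean of the 9 libraries (6.0 against 4.97 FPKM), so by the rule without a strand it stands for Cd74, and the value is then 1.42 in SSCiPSC and 1.53 in fiPSC (limma adjusted p = 0.0183 and 0.0025), opposite in direction.

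The class II genes around Cd74 were low. Of the 4 tested, 3 were called lower in each comparison, namely Cd74, H2-Ab1 and Ctss, beside 24.1% and 23.7% of all loci, and these 3 passed the filter mainly through SSC. H2-Ab1, a class II beta chain, was at 2.98, 1.60 and 5.33 FPKM in SSC and under 1 FPKM in the iPSC libraries, and fell by 1.32 and 1.09 (limma adjusted p = 0.0241 and 0.0406), calls that were lost in 3 and 7 of 14 alternative settings. Ctss, the protease that degrades the invariant chain, was at 8.52, 4.70 and 25.6 FPKM in SSC and fell by 2.98 and 2.50 (limma adjusted p = 0.00502 and 0.015), with all SSCiPSC libraries under 1 FPKM. Without fiPSC replicate 2 the Ctss value was -2.20 (limma adjusted p = 0.0605). H2-Eb1, another beta chain, was at 1.26, 0.48 and 2.0 FPKM in SSC and at 1.20 to 4.30 FPKM in the iPSC libraries and did not pass. H2-Aa, the class II alpha chain, was at 1.03, 0.79 and 6.60 FPKM in SSC and was under the filter. SSC library 3, the highest for Cd74, H2-Ab1, Ctss and H2-Aa, was also the highest for the macrophage and dendritic cell markers. C1qa, on average over SSC the most abundant of the markers with a locus of their own, was at 15.8, 4.61 and 51.1 FPKM in the SSC libraries and at 0.14 to 1.89 FPKM in the iPSC libraries, and all 10 markers with a locus were above 0 in the 3 SSC libraries. Cd68 did not pass, at 7.53, 3.51 and 15.8 FPKM in SSC and 7.65 to 13.7 FPKM in the iPSC libraries, where it made up most of the marker sum. Lyz2, in a locus shared with Lyz1, was at 21.9, 5.96 and 104 FPKM in SSC. Ptprc, the common leukocyte antigen, was at 0.58, 0.67 and 9.28 FPKM. The part of such cells in the Cd74 difference was not tested. Without SSC replicate 3 Cd74 was still called lower in both comparisons.

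**Figure D5:**
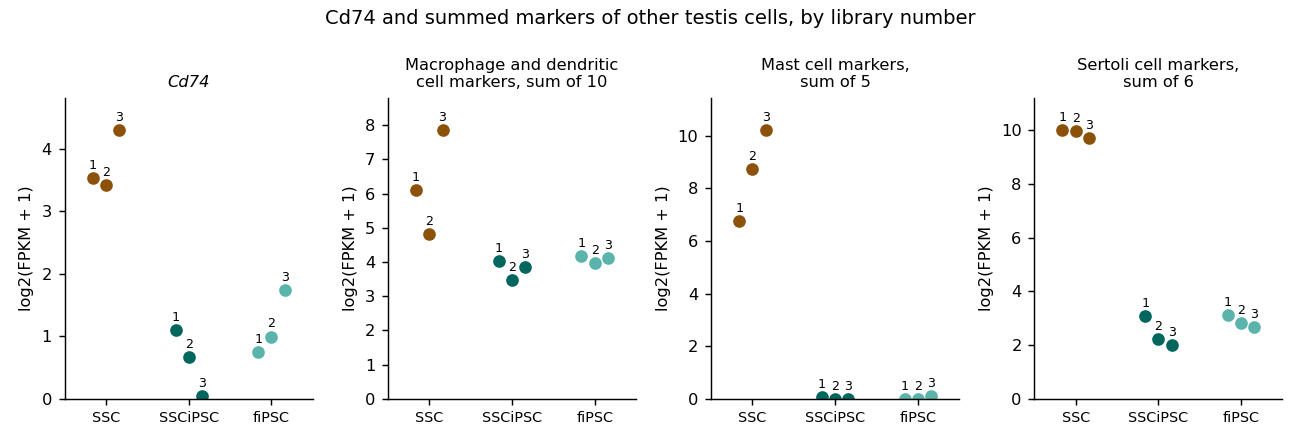
Cd74 and the summed FPKM of macrophage and dendritic, mast and Sertoli cell markers, each as log2(FPKM + 1) (y axes, from 0), with 1 point per library and its number. SSC library 3 is the highest SSC library for Cd74 and for the macrophage and mast cell sums, and the Sertoli sums of the SSC libraries lie close together.

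Within SSC the members followed similar orders of libraries. SSC library 2, the deepest and the one with the lowest macrophage and dendritic cell sum, was the lowest SSC library for 7 of the 9 measured members, and library 3 was the highest for 6. Tapbp and Psmb9 were the highest in library 2, and Psmb9 was the lowest in library 1 (0.97, 1.85 and 1.24 FPKM). The 3 SSC values of Tapbp spanned 23.8 to 25.7 FPKM. No share over all loci stands beside the counts of 7 and 6, so they are a description. The part of cell makeup and of depth in this order was not tested.

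Between the iPSC groups no member passed the test. Of the 33948 loci tested in fiPSC against SSCiPSC, 23 were called (0.0678%) with limma, and 3988 (11.7%) had an unadjusted p below 0.05. Leaving out 1 library gave 6 to 20 loci called, and the replicate block left 6. Of the 9 measured members 4 were tested, 0 were called, and 1, Tap1, had an unadjusted p below 0.05. The log2 differences were 0.29 for H2-K1 (SE 0.27, limma adjusted p = 0.717), 0.66 for H2-D1 (SE 0.28, limma adjusted p = 0.43) and under 0.01 for Tapbp (SE 0.14, limma adjusted p = 0.999). Tap1, Tap2 and Psmb8 were higher in all 3 fiPSC than in all 3 SSCiPSC libraries, and Tap2 and Psmb8 were under the filter there. These 3 of 9 measured members stand beside 9.82% of all 54913 loci so separated, and the 1 of 4 tested members, Tap1, beside 9.41% of the loci tested. The p-values do not show that the members were alike in the lines of different origin.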

How the data were processed

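The authors trimmed paired reads with Trimmomatic 0.32, aligned them with TopHat2 2.0.9 and Bowtie2 2.1.0, and made locus values with Cufflinks 2.2.1 and Cuffdiff, per the submitters' processing notes, which name the mm9 build. Per the labels ribosomal RNA was depleted before a stranded mRNA kit, whereas the study's methods describe the mRNA kit alone. The deposited table gives FPKM per locus (its header prints RPKM) and no counts. Its intervals overlapped GRCm38 genes for 92.8% of a test set against 38.3% and 37.9% after a shift of 1000000 bp, so GRCm38 (GENCODE vM21) was used for names. The rows of each chromosome fall into plus, minus and unstranded blocks, and 2310 of 2310 loci checked against genes had the same strand. A member was taken from the locus with the highest mean of the 9 libraries on its own strand, a limit to strand that the rule did not name and that was added after seeing the data, and 1 locus with a blank value was dropped. The second deposited file, which holds the authors' own comparisons, was not used.

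Depth was estimated from the step of low values, of which 100% lay within 0.1 of whole fragments. Values were tested as log2(FPKM + 1) with limma 3.58.1 (R 4.3.3, empirical Bayes with trend), in the libraries of each comparison, keeping loci where 3 or more libraries reached 1 FPKM, with Benjamini-Hochberg adjustment over all loci tested and a threshold of 0.05. The fit was tested on simulated data. There the share of false calls was above the threshold in both SSC comparisons and below it between the iPSC groups. Far fewer loci were changed in it than were called in the SSC comparisons, so it does not give the share of false calls among those. Replicate numbers did not pair libraries. All 10 members and up to 4 genes per pathway list (2 by mean FPKM, then by the size of a called difference), with values for others of their role, are named. Some further genes, among them Pdia3, Psmb10, Irf8, Nfkb1, Rfx5, Rfxap, Rfxank, Mrc1, Tyk2, Ifngr1, Ifnar2, H2-Aa, H2-T23, H2-M5, Cd68, Lyz2, Ptprc and C1qa, were named after their values were seen. Likeness to B2m was not computed. For the list of class I regulators, 1 gene is not reported here and is left out of its counts. Members and lists were chosen with earlier results of these data known. Sequences are from RefSeq (GRCm38.p6).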

Additional observations from a re-analysis of the deposited data

Results flagged for a closer look

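For Tap1, all 3 SSCiPSC libraries were below and all 3 fiPSC libraries above the 3 SSC libraries. The fiPSC difference from SSC itself did not pass (0.32, SE 0.21, limma adjusted p = 0.247). The difference of fiPSC from SSCiPSC was 0.98 on the log2(FPKM + 1) scale (SE 0.18, limma adjusted p = 0.184), which did not pass the threshold. Over the alternatives the adjusted p of this difference was 0.148 to 0.603. The groups had 3 libraries each, so no search for outlying libraries was made within a group.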

How the results depend on the processing

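Of the members' log2 differences recomputed under the alternatives, 99 of 108 for SSCiPSC against SSC and 117 of 123 for fiPSC against SSC kept direction and side of the threshold. The call of Tap1 in SSCiPSC was lost in 8 settings (pseudocount 0.1, no filter on low values, median-ratio scaling, the replicate block, and without SSC replicate 1 or 3 or SSCiPSC replicate 2 or 3). In fiPSC the call of Psmb8 was lost in 4 settings and that of Tap2 in 1, each leaving out 1 library. The limit to a gene's own strand was set after seeing the data. By the rule without it, the opposite-strand locus stands for Cd74 and gave 1.42 and 1.53. Tapbp in fiPSC against SSCiPSC, near 0, turned to -0.04 with median-ratio scaling, to -0.03 with strand ignored, and to -0.01, -0.02 and -0.07 without SSCiPSC replicate 1, SSCiPSC replicate 3 and fiPSC replicate 3 (highest 0.06, without fiPSC replicate 2). With a mean of at least 5 FPKM, 3 members were tested and 3 called in each SSC comparison, and 9707 and 10158 of 16833 loci were called. Leaving out 1 library gave 6 to 7 members and 14477 to 18577 loci called in SSCiPSC, 4 to 6 members and 15301 to 20731 loci in fiPSC, and 0 members and 6 to 20 loci between the iPSC groups. There, 10 loci were called with no filter, 11 with a mean of at least 5 FPKM and 11 with all 9 libraries in the fit. With median-ratio scaling the all-locus median rose by 0.18 in each SSC comparison, and the members called lower kept their direction. It raised the share of calls that were higher to 59.1% and 61.4%. Same-numbered libraries did not deviate together (correlations of -0.236 to 0.0239). The replicate block left 16926, 17546 and 6 loci called, and with it Tap1 in SSCiPSC had an adjusted p of 0.0961. Depth limits Psmb8, Psmb9 and Nlrc5 in particular, since the smallest whole fragment counts that match their SSC values are 1 to 6 per library.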
